A study of Mus musculus with 42 samples.

Results

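The genes described here mark 2 kinds of atypical sensory neuron of the main olfactory epithelium, the guanylate cyclase-D (necklace) neurons and the Trpc2-positive neurons. They were taken as a fixed list of 6 symbols in GENCODE release M21, namely Gucy2d, Cnga3, Pde2a, Car2, Trpc2 and Gucy1b2, by their known role in these neurons and not by a threshold on a measured value, although earlier results of these data were known. Of these, 5 had a row among the 44674 genes of the count table, and all 5 passed the filter on low counts that left 21168 genes. Pde2a was not analysed here under its own identifier, and the row of an overlapping gene model, Gm45837, is given beside the 5 and not counted with them. The libraries came from main olfactory epithelia of male C57BL/6NCrl mice aged 8 to 12 weeks, with 4 epithelia combined into each pool. Of the 21 pools, 5 had no odour (NoOdour), and the others were exposed for 1 h to the odour of normal chow (NCD, 6 pools), of a bacon-flavoured diet (Bacon, 5 pools) or of a lard-based high-fat diet (HFD, 5 pools). Each pool gave a pulldown library, made with an antibody to phosphorylated ribosomal protein S6 (pS6-ribotrap, which captures ribosomes of recently active cells with their messenger RNA), and an input library of the whole tissue. All groups shared this strain. The cells were not sorted, so in these bulk libraries fewer cells of a type and less RNA per cell cannot be told apart.

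Most olfactory sensory neurons answer an odour through cyclic AMP, which opens a channel built from Cnga2, Cnga4 and Cngb1. Necklace neurons instead use cyclic GMP, made by the receptor guanylate cyclase Gucy2d, which opens a channel with the subunit Cnga3. In these cells Pde2a, a phosphodiesterase stimulated by cyclic GMP, breaks the messenger down, and Car2, carbonic anhydrase 2, turns carbon dioxide into bicarbonate. They are known for responses to carbon dioxide, carbon disulphide and the peptides guanylin and uroguanylin, and project to the necklace glomeruli of the bulb. A separate set of neurons in the main epithelium carries Trpc2, a cation channel better known from the vomeronasal organ, and some of them also carry Gucy1b2, a subunit of soluble guanylate cyclase. Car2 and Pde2a are also made by cells other than neurons.

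On GRCm38, Gucy2d (ENSMUSG00000074003) lies at chr7:98440416-98477479 on the plus strand, Cnga3 (ENSMUSG00000026114) at chr1:37214434-37263384 on the plus strand and Car2 (ENSMUSG00000027562) at chr3:14886273-14900770 on the plus strand. Gucy1b2 (ENSMUSG00000021933) lies at chr14:62392676-62456289 on the minus strand and Trpc2 (ENSMUSG00000100254) at chr7:102083116-102096396 on the plus strand. All 5 are annotated as protein coding. For Gucy2d, Car2 and Gucy1b2, 0% of the 31-base words of their transcripts occur in another gene, and for Cnga3 1.42% do.

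Trpc2 is the exception, since 97.5% of its 31-base words also occur in Xntrpc (ENSMUSG00000070425, chr7:102065713-102096864), a longer gene model on the same strand that ends in the same exons. Only 29 words, within a stretch of 59 bases of the Trpc2 transcript of 2874 bases, belong to Trpc2 alone. The sequences below, from GENCODE M21 transcripts on the plus strand of GRCm38, show why so few reads can tell the 2 models apart. Capitals mark the 15 bases of the upstream exon, which differ (chr7:102083172-102083186 for Trpc2 and chr7:102083004-102083018 for Xntrpc), and lower case marks the first 29 bases of the exon that both share (chr7:102083861-102083889).
Trpc2: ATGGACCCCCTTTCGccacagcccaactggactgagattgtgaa
Xntrpc: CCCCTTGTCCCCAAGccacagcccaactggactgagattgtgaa

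For Pde2a (ENSMUSG00000110195, chr7:101421691-101512827), 63.5% of the 31-base words occur in Gm45837 (ENSMUSG00000030653, chr7:101410886-101512819), a gene model on the same strand that overlaps it. Pde2a has 6187 such words and Gm45837 has 4109, so the shared words are a larger part of Gm45837 than of Pde2a. How far the counts of the Gm45837 row stand for Pde2a was not tested, and its values are read here as those of the locus.

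All of these genes except Car2 were scarce in the epithelium. The median count over the 21 input libraries was 17 for Gucy2d, 25.7 for Cnga3, 26.4 for Trpc2 and 51 for Gucy1b2, against 1972 for Car2, in libraries of 24839555 to 36781553 counts (median 31457188). The pulldown libraries held 25392812 to 36738330 counts (median 30313284). Levels are given as CPM (counts scaled to the library size), scaled by the trimmed mean of M-values (TMM), and only where genes are compared with each other they are divided by the length of the merged exons. Per kb, the order in the input libraries was Car2 (25.3 ± 2.40 CPM per kb, SD, n = 21), the Gm45837 row (2.15 ± 0.159), Gucy1b2 (0.638 ± 0.119), Trpc2 (0.330 ± 0.161), Cnga3 (0.210 ± 0.0373) and Gucy2d (0.142 ± 0.0378). Car2 exceeded the Gm45837 row, and this row exceeded Gucy1b2, in 21 of 21 input libraries. Further down the order the ranges of neighbours overlapped, with Gucy1b2 above Trpc2 in 20 libraries, Trpc2 above Cnga3 in 17 and Cnga3 above Gucy2d in 20. In the pulldown libraries Gucy1b2 stood above Trpc2 in 16 of 21 and Trpc2 above Cnga3 in 14 of 21, and their ranges overlapped. For scale, Cnga2, the channel subunit of the canonical pathway, had a mean of 136 CPM per kb over all 42 libraries, whereas Cnga3 had 0.228.

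**Figure D1:**
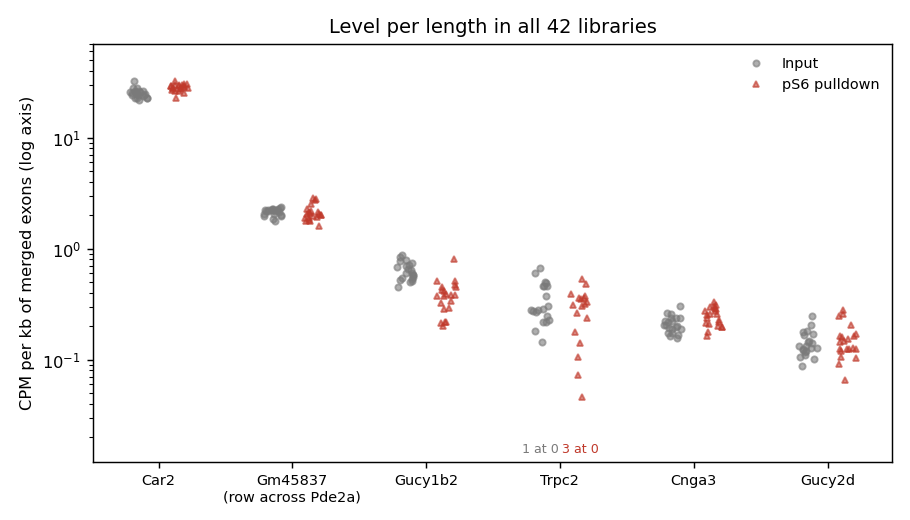
Level of each gene per kb of merged exons (log axis) in the 21 input libraries (grey circles) and the 21 pulldown libraries (red triangles), 1 point a library, with libraries at 0 counted at the foot. Car2 lies above the Gm45837 row in every library, and the other genes lie below 1 CPM per kb, with ranges that overlap between neighbours.

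The first comparison asked which of these genes were richer or poorer in the pulldown than in the input of the same pool. Of the 5 members, 0 were called in the pools without odour, 1 with NCD odour, 1 with Bacon odour and 0 with HFD odour, by the quasi-likelihood test of edgeR (called at a Benjamini-Hochberg adjusted p under 0.001, all genes included). In both groups with a call it was Car2, higher in the pulldown. Among all genes tested, 35.8% were called in the same comparison without odour, 46% with NCD, 41.3% with Bacon and 42.7% with HFD. With 5 genes these counts are a description. At an unadjusted p under 0.05 there were 1, 2, 2 and 3 members in these 4 groups. Over all 21168 genes there were 13437, 14776, 14054 and 14286 at that cut. DESeq2 with the same design called 0, 1, 1 and 0 members. The median log2 pulldown-to-input change over the members was -0.01, -0.25, 0.16 and -0.12, beside 0.01, -0.01, -0.02 and -0.01 over all genes.

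Gucy1b2, the subunit of soluble guanylate cyclase, had a lower mean in the pulldown than in the input in all 4 groups. Its input level was 1.95 ± 0.306 CPM (SD, n = 5) without odour, 1.69 ± 0.391 (n = 6) with NCD, 1.71 ± 0.294 (n = 5) with Bacon and 1.67 ± 0.304 (n = 5) with HFD. In the pulldown it was 1.24 ± 0.617, 1.00 ± 0.256, 0.970 ± 0.305 and 0.993 ± 0.303 CPM. The 5 pulldown libraries without odour were at 2.24, 1.02, 0.551, 1.24 and 1.15 CPM, against 1.58, 1.91, 2.43, 1.86 and 1.96 CPM in their inputs, so that pool 1 alone stood higher in the pulldown. With Bacon odour the pulldowns were at 1.39, 0.581, 1.05, 1.05 and 0.788 CPM and their inputs at 1.79, 1.51, 1.45, 2.18 and 1.65 CPM, and the 2 sets did not overlap. With HFD odour they were at 0.806, 1.13, 1.03, 0.602 and 1.39 CPM against 1.76, 2.13, 1.42, 1.38 and 1.65 CPM, with the highest pulldown just above the lowest input. In the NCD group the pulldowns ran from 0.599 to 1.30 CPM (median 1.00) and the inputs from 1.25 to 2.29 CPM (median 1.56), touching at their edges.

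Within its own pool, Gucy1b2 was lower in the pulldown in 20 of 21 pools. The fitted log2 change was -0.72 (SE 0.249) without odour, -0.76 (SE 0.226) with NCD, -0.84 (SE 0.248) with Bacon and -0.76 (SE 0.247) with HFD, with edgeR adjusted p of 0.0151, 0.00449, 0.00463 and 0.00888, none of which reached the threshold of 0.001. Without pool 1 of the NoOdour group the change there was -1.06 with an adjusted p of 0.000842, and without pool 3, the lowest, it was -0.43 with an adjusted p of 0.130 (edgeR). Averaged over the 4 groups, a contrast added after the values were seen, the change was -0.77 (SE 0.121, edgeR adjusted p = 2.00e-06), a level in the pulldown of 0.586 times the input. Over all genes 67.2% were called in that averaged contrast, and 2 of the 5 members were, Gucy1b2 lower and Car2 higher.

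The other subunits of soluble guanylate cyclase, from a list fixed without regard to direction, stood lower in the pulldown as well. In the averaged contrast, in which 67.2% of all genes were called, 0 of 3 rose and 3 of 3 fell. Their median was -0.98 beside -0.01 over all genes. Gucy1a1, the alpha1 subunit, fell by 1.54 on the log2 scale, Gucy1a2, the alpha2 subunit, by 0.98 and Gucy1b1, the beta1 subunit, by 0.92. These 3 are broadly expressed, also by endothelium and smooth muscle, and the endothelial markers moved in the same direction. Of the 10 endothelial markers, 8 fell and 1 rose in that contrast, their summed level was 33.4 CPM in the Bacon inputs and 23.0 CPM in the Bacon pulldowns, the most abundant per kb was Cldn5, and none was at 0 in any library. The part of endothelial cells in the Gucy1b2 result was not tested.

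Car2 was the abundant member, with 1475 to 2546 counts in each library. Its input levels without odour were 61.7, 68.2, 67.5, 78.8 and 64.5 CPM, with Bacon odour 53.3, 54.8, 59.3, 54.8 and 55.7 CPM, and with HFD odour 55.7, 59.8, 60.0, 62.4 and 63.2 CPM. The 6 NCD inputs ran from 57.7 to 64.5 CPM (median 60.9). The inputs without odour thus lay above all Bacon inputs and overlapped those of the other odours. In the pulldown the group means were close to each other, at 67.6 ± 3.27 CPM without odour (SD, n = 5), 72.0 ± 2.08 with NCD (n = 6), 67.3 ± 8.22 with Bacon (n = 5) and 67.6 ± 4.26 with HFD (n = 5).

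The log2 pulldown-to-input ratio of Car2, computed with a prior count of 2, was 0.04, -0.01, -0.04, -0.15 and 0.13 in the pools without odour, and 0.06, 0.37, 0.19, 0.23 and 0.48 in the Bacon pools. It was 0.37, 0.16, 0.19, 0.15 and -0.06 in the HFD pools and ran from 0.08 to 0.35 (median 0.25) in the NCD pools. The ratio was therefore above 0 in 6 of 6 NCD pools and 5 of 5 Bacon pools, and on either side of 0 without odour. The fitted change was 0.24 (SE 0.0567, adjusted p = 0.000650) with NCD and 0.27 (SE 0.0623, adjusted p = 0.000533) with Bacon, 0.17 (SE 0.0622, adjusted p = 0.0225) with HFD and -0.01 (SE 0.0623, adjusted p = 0.931) without odour, all by edgeR. The NCD call was lost without any 1 of NCD pools 1, 3, 4, 5 and 6 or NoOdour pools 2 and 3. The highest adjusted p of these was 0.00439 (edgeR). The Bacon call was lost without any 1 of Bacon pools 2, 3, 4 and 5 (highest adjusted p 0.00829). Both calls were also lost with no filter beyond 1 count, at edgeR adjusted p of 0.00915 for NCD and 0.00120 for Bacon. Other settings that ended them are given at the end.

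Erythrocytes and osteoclasts also make Car2, and their markers moved with the pulldown. Of the 10 erythroid markers with a row, 8 rose and 0 fell in the pulldown in each of the 4 groups. Over all genes 35.8% to 46% were called in these comparisons. The erythroid sum had group means of 438 to 499 CPM in the inputs and of 2073 to 2459 CPM in the pulldowns. The most abundant per kb was Hba-a2, a haemoglobin chain. The 8 osteoclast markers, led per kb by Acp5, summed to 93.8 to 141 CPM in the inputs without odour and to 64.7 to 88.6 CPM in those with an odour, and to 227 to 369 CPM in the pulldowns without odour against 111 to 229 CPM in the others. No osteoclast marker was at 0 in any library. The part of these cells in the Car2 values was not tested.

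**Figure D2:**
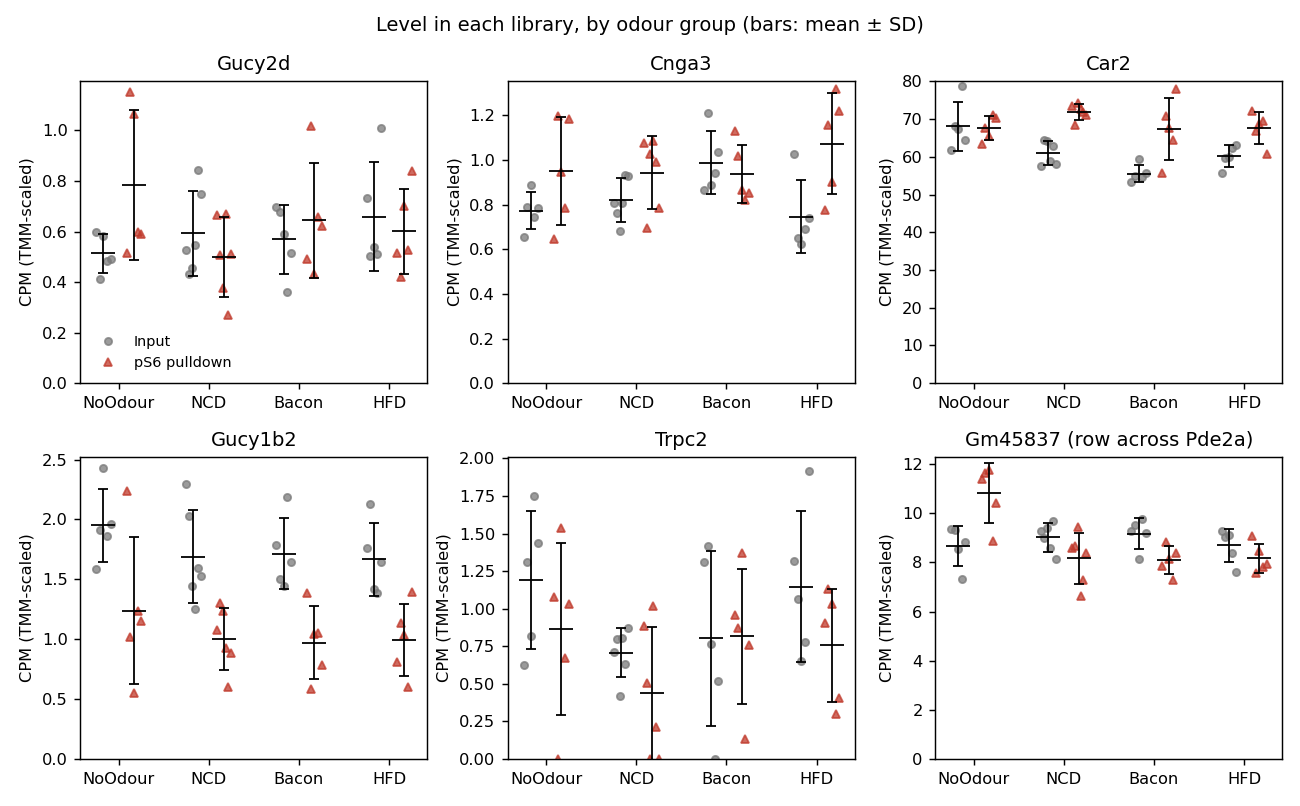
Level in CPM of each gene in every input library (grey circles) and pulldown library (red triangles), by odour group, with the mean and SD of each group. Gucy1b2 lies lower in the pulldown in each group, Car2 inputs are highest without odour, and the Gm45837 row is highest in the pulldowns without odour.

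Gucy2d, the receptor cyclase that defines the necklace neurons, had 9 to 30 counts a library. Its input levels were 0.597, 0.413, 0.582, 0.484 and 0.490 CPM without odour, and its pulldown levels there 0.516, 1.15, 1.06, 0.600 and 0.592 CPM. Pools 2 and 3 carried most of that difference, and the other pulldowns lay within the range of the inputs or close to it. With Bacon odour the pulldowns were at 0.492, 1.02, 0.433, 0.656 and 0.624 CPM and the inputs at 0.697, 0.679, 0.591, 0.360 and 0.517 CPM, and with HFD odour at 0.516, 0.421, 0.701, 0.527 and 0.841 CPM and 0.733, 0.503, 0.538, 0.511 and 1.01 CPM. In the NCD pools the pulldown ran from 0.270 to 0.669 CPM (median 0.509) and the input from 0.432 to 0.844 CPM (median 0.537). Pulldown and input overlapped in all 4 groups. The fitted log2 changes were 0.55 (95% interval -0.08 to 1.18), -0.25 (-0.82 to 0.32), 0.16 (-0.46 to 0.77) and -0.12 (-0.73 to 0.49) for no odour, NCD, Bacon and HFD, and all 4 intervals held 0.

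Cnga3, the channel subunit of the same neurons and of cone photoreceptors, had 15.4 to 44.0 counts a library. With HFD odour its pulldowns were at 0.774, 1.16, 0.901, 1.32 and 1.22 CPM and their inputs at 1.03, 0.652, 0.623, 0.691 and 0.739 CPM, with pool 1 the only pool in which the input was higher. Its log2 change there was 0.53 (SE 0.211, edgeR adjusted p = 0.0316), the largest of the 4 groups and short of the threshold. It was 0.28 (SE 0.217) without odour, 0.19 (SE 0.192) with NCD and -0.07 (SE 0.207) with Bacon. Over the 4 groups together the change was 0.23 (95% interval 0.02 to 0.44, edgeR adjusted p = 0.0432).

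The canonical channel subunits were measured far more deeply. Of the 5 subunits listed, 4 passed the filter, and 3 of these rose and 0 fell in the averaged contrast. Over all genes 67.2% were called there, so 3 of 4 lies near the background. The 3 were Cnga2 at 0.83, Cngb1 at 0.39 and Cnga4 at 0.13 on the log2 scale. Cngb3, the partner of Cnga3 in cones, had a median of 4 counts and a change of -1.22 (edgeR adjusted p = 0.00272). The rod subunit Cnga1 did not pass the filter.

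**Figure D3:**
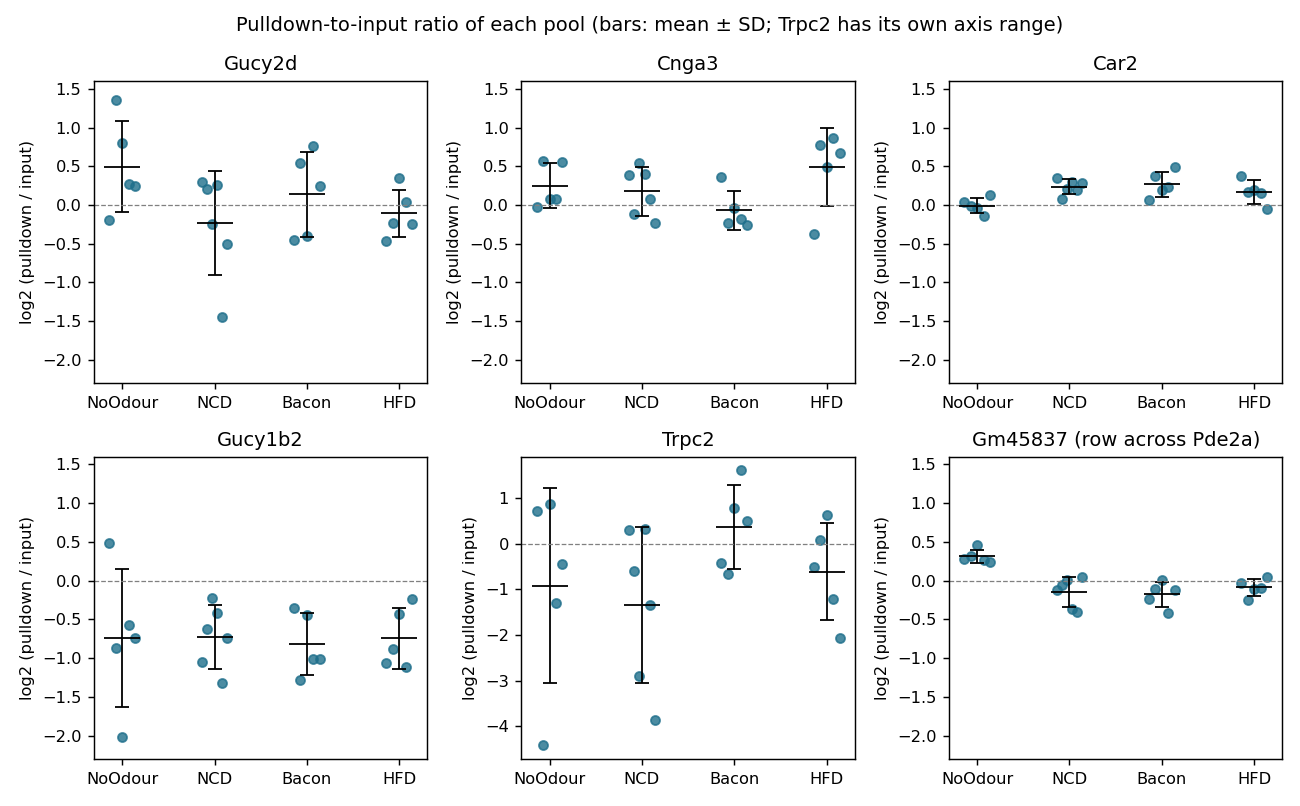
Log2 pulldown-to-input ratio of each of the 21 pools (points) by odour group, with the mean and SD of each group and a dashed line at 0. Gucy1b2 lies below 0 in 20 pools, and the Gm45837 row lies above 0 in all 5 pools without odour and between -0.42 and 0.05 in the 16 others.

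Trpc2, as assigned by Salmon, swung between libraries more than any other member. Its input levels were 0.627, 1.31, 0.821, 1.75 and 1.44 CPM without odour, 1.31, 1.42, 0.768, 0 and 0.517 CPM with Bacon and 1.32, 1.07, 0.652, 0.781 and 1.92 CPM with HFD, and from 0.418 to 0.869 CPM (median 0.755) with NCD. In the pulldown they were 1.07, 0, 1.54, 0.675 and 1.03 CPM without odour, 0.955, 0.871, 1.37, 0.131 and 0.755 CPM with Bacon, 0.903, 1.13, 1.03, 0.301 and 0.406 CPM with HFD, and from 0 to 1.02 CPM (median 0.358) with NCD. It was listed at 0 in 4 of 42 libraries, where a count of 0 allows up to 0.133 CPM by counting error alone (3 counts). In those libraries Xntrpc was at 4.25, 4.62, 4.05 and 4.70 CPM, among its highest values. Trpc2 took from 0% to 46.5% (median 27.4%) of the counts of both models in the inputs and from 0% to 63.2% (median 23.3%) in the pulldowns.

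Taken as a sum, a choice made after the values were seen, the 2 models gave a steadier level, at 3.36 ± 0.630 CPM in the inputs and 3.57 ± 0.797 CPM in the pulldowns (SD, n = 21 each). The fitted log2 pulldown-to-input change of Trpc2 alone was -0.56, -0.99, 0.17 and -0.61 for no odour, NCD, Bacon and HFD, with standard errors between 0.641 and 0.674. That of the sum was 0.14, 0.29, -0.03 and -0.15, with standard errors between 0.126 and 0.142, and the smallest edgeR adjusted p was 0.0473, with NCD. The sign of the change thus depended on the choice in the groups without odour and with NCD or Bacon, and no value of either kind was called. Xntrpc also holds an upstream part that Trpc2 lacks, so the sum is not a measure of Trpc2 alone.

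**Figure D4:**
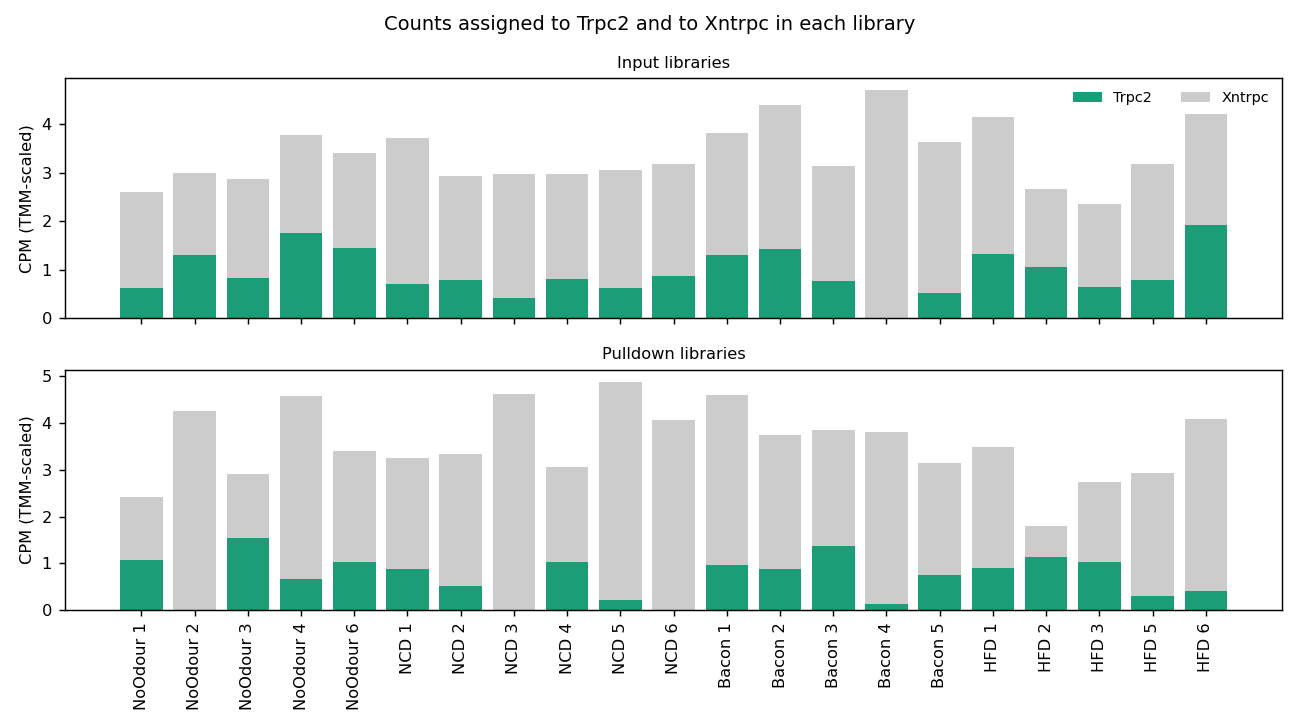
CPM assigned to Trpc2 (green) and to Xntrpc (grey, stacked on it) in each input library (top) and pulldown library (bottom), by odour group and replicate number. Trpc2 is at 0 in 1 input and 3 pulldown libraries, in which the Xntrpc part is tall.

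The second comparison asked whether the pulldown-to-input ratio differed with each food odour from that without odour. None of the 5 members was called, by edgeR, with NCD, Bacon or HFD (0, 0 and 0, with 1, 1 and 0 at an unadjusted p under 0.05, and 0 in each by DESeq2). Among all genes 0.524%, 3.78% and 1.22% were called, so 0 of 5 lies near the background (111, 801 and 258 of 21168 genes). At an unadjusted p under 0.05 there were 5905, 7114 and 6273 of these genes. The 3 comparisons share the 5 pools without odour. These pools also stood apart technically, since ribosomal RNA genes took 28.1% ± 4.21 (SD, n = 5) of the counts of their inputs and 14.5% ± 3.47 (n = 16) of those with an odour (two-sided exact permutation test, p = 0.000197), and 23.9% ± 5.96 and 14.2% ± 3.06 in the pulldowns (p = 0.00157). With this share as a covariate the members called in the 3 comparisons were again 0, and the genes called were 84, 55 and 204 of 21168. With only the groups compared in the fit, 187, 26 and 37 genes were called.

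Car2 came closest. Its ratio was higher than without odour by 0.24 (SE 0.0843, adjusted p = 0.0545) with NCD, 0.28 (SE 0.0881, adjusted p = 0.0247) with Bacon and 0.17 (SE 0.0880, adjusted p = 0.192) with HFD on the log2 scale, by edgeR. When the pulldown libraries were compared without their inputs, the same differences were 0.08, -0.0049 and -0.0065, with adjusted p of 0.390, 0.968 and 0.957 (edgeR). For all 3 odours against none, a contrast also added after the values were seen, the difference was 0.23 (SE 0.0714, edgeR adjusted p = 0.0185), and 5.47% of all genes (1158) and 0 of the 5 members were called. With the covariate 240 genes were.

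For Gucy1b2 the differences from no odour were -0.04 (95% interval -0.73 to 0.65), -0.12 (-0.84 to 0.60) and -0.04 (-0.76 to 0.67) with NCD, Bacon and HFD. Without pool 1 of the NoOdour group they changed sign, to 0.30, 0.22 and 0.29. Without pool 3 of that group they stayed below 0, at -0.34, -0.40 and -0.33. In the pulldown libraries alone they were -0.31, -0.33 and -0.30, none of them called by edgeR (highest adjusted p 0.525). Those of Gucy2d were all below 0, at -0.80 (-1.65 to 0.05), -0.39 (-1.27 to 0.48) and -0.67 (-1.55 to 0.20), with edgeR adjusted p of 0.209, 0.572 and 0.305. Cnga3 had -0.09 (-0.68 to 0.51), -0.35 (-0.97 to 0.27) and 0.25 (-0.37 to 0.87). Trpc2 had intervals of over 3 log2 units, and the sum with Xntrpc had 0.14 (-0.25 to 0.53), -0.18 (-0.58 to 0.23) and -0.29 (-0.70 to 0.12). These intervals do not show that the ratios were alike.

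The ratio of the Gm45837 row, which overlaps Pde2a, was higher without odour than with any odour. Its ratios were 0.28, 0.32, 0.46, 0.27 and 0.24 in the pools without odour, -0.24, -0.11, 0.00, -0.42 and -0.13 in the Bacon pools, -0.03, -0.25, -0.11, -0.10 and 0.05 in the HFD pools and from -0.41 to 0.05 (median -0.08) in the NCD pools. All 5 pools without odour lay above all 16 pools with an odour. The pulldown levels behind them were 11.4, 11.6, 11.8, 8.88 and 10.41 CPM without odour and between 6.63 and 9.44 CPM in the other 16, overlapping only at pool 4 of the NoOdour group, while the input means were within 8.67 to 9.17 CPM in all 4 groups. The fitted difference from no odour was -0.47 (SE 0.110, adjusted p = 0.00789) with NCD, -0.50 (SE 0.115, adjusted p = 0.00291) with Bacon and -0.41 (SE 0.115, adjusted p = 0.0178) with HFD, by edgeR, none of them past 0.001. Against all 3 odours together it was -0.46 (SE 0.0933, adjusted p = 0.000878), and -0.50 with an adjusted p of 0.00325 when the share of ribosomal RNA was a covariate. Leaving out each pool in turn moved the size only from -0.48 to -0.41 but brought the adjusted p above 0.001 in 17 of 21 cases, up to 0.00462 without pool 3 of the NoOdour group. With no filter beyond 1 count the adjusted p was 0.00176. Markers of macrophages and osteoclasts stood apart in the same pulldowns. The 7 macrophage markers summed to 115 to 162 CPM in the pulldowns without odour. In the others they summed to 59.1 to 93.9 CPM, without overlap. Their median difference in the ratio of all odours to none was -0.39, with 0 higher and 1 lower called. Over all genes 5.47% (1158) were called in that contrast, and 240 genes with the ribosomal RNA covariate. The 8 osteoclast markers had group means of 318 CPM without odour and 173 to 204 CPM with an odour, and a median difference of -0.16. The part of these cells in the Gm45837 values was not tested.

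**Figure D5:**
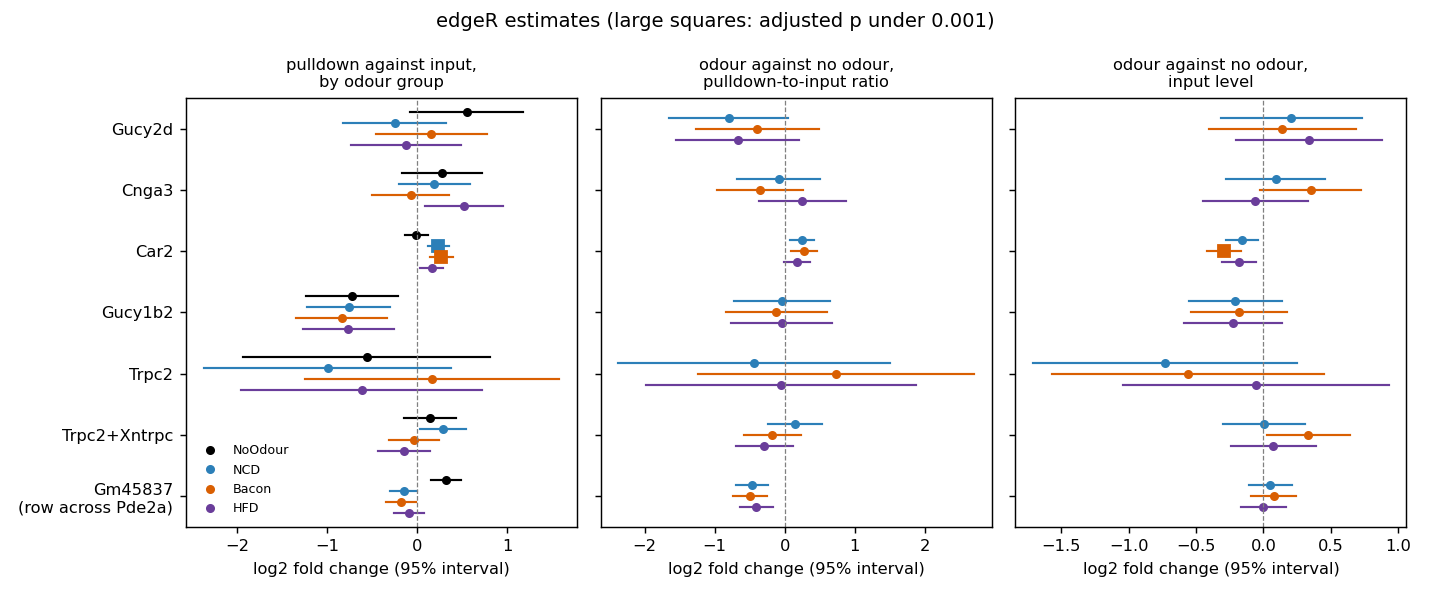
Fitted log2 fold change with its 95% interval for each gene, for pulldown against input in each odour group (left), each odour against no odour in the ratio (middle) and each odour against no odour in the input (right). Large squares mark an adjusted p under 0.001, which only Car2 reached, with NCD and Bacon in the left panel and with Bacon in the right one.

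The third comparison set the food odours against each other. No member was called in the ratio between HFD and Bacon, HFD and NCD or Bacon and NCD, by edgeR. Over all genes 0.0378%, 0.0236% and 0.00945% were called. At an unadjusted p under 0.05 there were 0 members in each, beside 1693, 979 and 1533 of 21168 genes. DESeq2 called 0 members in each. The largest difference of a member measured with a standard error under 0.5 was that of Cnga3 between HFD and Bacon, 0.60 (95% interval -0.01 to 1.21, edgeR adjusted p = 0.631). Car2 differed by -0.10 (-0.28 to 0.08), -0.07 (-0.25 to 0.10) and 0.03 (-0.14 to 0.20) in these 3 comparisons.

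In the input libraries, which give the level in the whole tissue, 1 of the 5 members was called with Bacon odour, 0 with NCD and 0 with HFD, and 13.7%, 0.998% and 0.963% of all genes were (2812, 204 and 197 of 20451). These backgrounds were not stable, since 5, 7 and 4 genes were called with the share of ribosomal RNA as a covariate and 758, 29 and 6 with only the groups compared. At an unadjusted p under 0.05 there was 1 member in each, Car2, beside 9665, 7297 and 7135 of 20451 genes with Bacon, NCD and HFD. Car2 was lower than without odour with Bacon, by 0.29 on the log2 scale (SE 0.0617, edgeR adjusted p = 0.000614), a level of 0.816 times that without odour. Its changes were -0.16 (SE 0.0589, adjusted p = 0.0526) with NCD and -0.18 (SE 0.0617, adjusted p = 0.0401) with HFD, by edgeR. The Bacon call was lost without any 1 of Bacon pools 1, 2, 4 and 5 or NoOdour pools 2 and 3 (highest edgeR adjusted p 0.00254). It was also lost with the replicate number as a block (adjusted p = 0.00111, edgeR) and with the share of ribosomal RNA as a covariate (-0.23, adjusted p = 0.796, edgeR). That share was higher in every input without odour than in every Bacon input, so the covariate and the odour cannot be told apart here. Gucy1b2 changed by -0.21 (95% interval -0.55 to 0.14), -0.18 (-0.54 to 0.18) and -0.23 (-0.59 to 0.14) with NCD, Bacon and HFD. Gucy2d and Cnga3 had adjusted p of 0.132 or more, and the intervals of Gucy2d reached from -0.40 to 0.88. Xntrpc was at 0.69 with Bacon (SE 0.175, edgeR adjusted p = 0.00282), its sum with Trpc2 at 0.33 (SE 0.151, adjusted p = 0.0801) and Trpc2 at -0.56 (SE 0.485), so the 2 models of the shared reads differed in sign.

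Among the genes listed with Gucy2d, Cd36 had a mean of 64.9 CPM over the 42 libraries and Ncald one of 19.9 CPM, not divided by length. Guca2a and Guca2b were at 0 in 37 and 40 of these libraries. Of these 17 genes (the ligands guanylin and uroguanylin, encoded by Guca2a and Guca2b, the Ms4a receptors of necklace neurons, calcium sensors and Cd36), 8 passed the filter. In the averaged pulldown contrast, in which 67.2% of all genes were called, 1 rose and 2 fell, with a median of 0.01. Cd36, a scavenger receptor also made by other cells, fell by 0.99 and Ncald, a calcium sensor, fell by 0.65, whereas Ms4a7 rose by 0.77 on the log2 scale. Ms4a6c had 0.28 (edgeR adjusted p = 0.116). No gene of this list was called in the ratio with any odour against none. Ms4a7 is also made by macrophages, whose markers rose in 5 of 7 and fell in 0 of 7 in that contrast. They were led per kb by C1qb and summed to 47.5 to 63.8 CPM in the group means of the inputs and to 82.8 to 141 CPM in those of the pulldowns. The part of macrophages in the Ms4a7 value was not tested.

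Among the other membrane guanylate cyclases and the natriuretic peptide receptors related to them, 6 of 7 passed the filter. In the averaged contrast, in which 67.2% of all genes were called, 0 rose and 3 fell, with a median of -0.51 on the log2 scale. Npr3, a clearance receptor without cyclase activity, fell by 1.23, the retinal cyclase Gucy2f fell by 0.70 and Npr2, the receptor of C-type natriuretic peptide, fell by 0.46. Gucy2e had -0.56 (edgeR adjusted p = 0.00456), Npr1 -0.31 (0.00622) and Gucy2c, the guanylin receptor of the gut, 0.20 (0.112). In the ratio of all odours to none, Gucy2c had a difference of 0.97 (edgeR adjusted p = 0.0114) and Gucy2e one of -1.32 (0.0171), neither past 0.001.

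The list of cyclic nucleotide phosphodiesterases had 21 of 23 genes past the filter, of which 8 rose and 9 fell in the pulldown in the averaged contrast (median -0.09), in which most genes were called (67.2%). Pde6d rose by 1.01, Pde8a by 1.10, Pde4a, an enzyme specific for cyclic AMP, by 0.33 and Pde7b by 0.25 on the log2 scale. With Bacon odour against none 1 rose and 2 fell in the ratio, namely Pde6d (0.78), Pde8a (-0.53) and Pde8b (-0.74), the last named after its value was seen, beside the 3.78% of all genes called, a number that the covariate took from 801 to 55. Of the 15 other carbonic anhydrases 14 were tested, and 4 rose and 5 fell in the averaged contrast (median -0.32). Car11, a member of the family without enzyme activity, rose by 1.36, Car8, another such member, by 0.39 and Car4, which sits on the outer membrane, by 0.34, and Car3, abundant in muscle and fat, fell by 0.45. In the ratio of all odours to none 2 of the 14 rose and 0 fell, beside 5.47% of all genes called, which the ribosomal RNA covariate took from 1158 genes to 240. They were Car4, by 0.78 (edgeR adjusted p = 0.000307), and Car6, a secreted form, by 0.93 (adjusted p = 0.000663, edgeR), the latter named after its value was seen, where Car2 had 0.23. Their own values with that covariate were not examined.

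The labels name the main olfactory epithelium, and markers of the mature sensory neuron were abundant in every library, led per kb by Omp with a mean of 3199 CPM per kb. Of the 10 markers, 8 rose and 2 fell in the pulldown in the averaged contrast, in which 67.2% of all genes were called. Vomeronasal tissue, the main source of Trpc2 in the mouse, lies close to this dissection. Of the 297 vomeronasal receptor and related genes in the table, 52 were at 0 in all 42 libraries, 7 passed the filter, and the whole list summed to between 12.4 and 14.8 CPM in the group means. The most abundant, Vmn1r58, had a mean of 5.93 CPM, not divided by length. The Grueneberg ganglion markers Gucy2g and Vmn2r83 had medians of 1.5 and 0 counts and were at 0 in 9 and 28 of the 42 libraries. The part of vomeronasal tissue in the Trpc2 values was not tested.

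For each gene the 3 other genes most like it were found by Pearson's correlation over the 21 pools after each odour group's mean was subtracted, among the 21168 genes tested. These are descriptions, since the best of so many genes correlates strongly in 21 points that share libraries and depth. In the log2 ratio, Gucy2d was closest to Gm16283 (r = 0.73), 1700010I14Rik (0.69) and Ccdc34os (0.68). Cnga3 was closest to Resp18 (0.83), Rrh (0.79) and Pcdhgc5 (0.74), Gucy1b2 to Gm28900 (0.79), Gm5891 (0.77) and Adprhl1 (0.77), and Trpc2 to Zfp119a (0.79), Rtl10 (0.78) and Rab26 (0.78). Car2 was closest to Smyd2 (0.90), Mycbp (0.88) and Cyc1 (0.87), and the Gm45837 row to Nrg2 (0.84), Olfr1408 (0.77) and Gm12936 (0.73). In the input level, Gucy2d was closest to Dtnb (0.81), Olfr811 (0.77) and Rhbdd3 (0.74), Cnga3 to Slc36a2, Zfp672 and Plin5 (0.78 each), and Gucy1b2 to Gm37236 (0.82), Olfr235 (0.75) and Cd86 (0.70). Car2 was closest to Ogn (0.90), Eif4a3 (0.89) and Txndc17 (0.87), Trpc2 to Nlrc3 (0.79), ENSMUSG00000087481 (0.79) and Calcr (0.75), and the Gm45837 row to Phka1 (0.82), Snx33 (0.82) and Tmprss5 (0.79). No member was among the 3 genes closest to another member by either measure.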

How the data were processed

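Pulldown and input libraries of 21 pools were sequenced by the authors as paired reads of 75 bases and quantified with Salmon on GRCm38 in the nf-core pipeline. The table the authors deposited holds the estimated counts per gene that Salmon gave, not normalized, of which 30.9% were not whole, and these were rounded here. The authors divided pulldown by input and tested with DESeq2 1.26. Here edgeR 4.0.16 (R 4.3.3, limma 3.58.1) was used with TMM scaling, a minimum count of 10, the robust quasi-likelihood test and Benjamini-Hochberg adjustment over all genes, called at 0.001 as in the study. The ratio model had a term per pool and a pulldown term per odour (21168 genes), and the input model a term per odour (20451 genes). DESeq2 1.42.0 was an alternative. The models were tested on simulated data. The share of ribosomal RNA was taken over 312 genes, those annotated as ribosomal RNA with a few others, among them the protein-coding Lars2.

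The members and lists were chosen with earlier results of these data known. All members are named. From the pathway lists, genes were named by the rule of all genes in lists of up to 8 and the 4 most abundant per kb in longer ones, and others are marked as named after their values were seen. Marker lists of other cells are given by counts, summed levels and in most cases the most abundant gene. The result of 1 pathway list is not reported here. The contrasts averaged over the 4 groups and over the 3 odours were added after the values were seen. Gene names came from GENCODE M21 (44118 of 44674 identifiers). Pulldown and input of a pool come from the same tissue. Their deviations from group means correlated with a median r of 0.0142 over 21 pools, and those of pulldowns with other inputs of the group with -0.00416. Replicates are pools of 4 epithelia, and the labels do not say how pools relate beyond their number. No 2 libraries of a group agreed within sampling noise (lowest chi-square per degree of freedom 3.19, 90 pairs). Floors of 3 counts (0.0830 to 0.133 CPM) cover counting error only.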

Additional observations from a re-analysis of the deposited data

Results flagged for a closer look

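The Cnga3 level of pool 1 in the HFD inputs was 1.03 CPM, far above the median of 0.671 CPM of the other pools of that group. It was the 1 such library among 72 groups of 4 to 10 values tested, where chance alone flags about 1 in 20. The pulldown-to-input ratio of the Gm45837 row, which overlaps Pde2a, differed between the pools with any odour and those without by -0.46 on the log2 scale (edgeR adjusted p = 0.000878), in a contrast added after the values were seen.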

How the results depend on the processing

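Of 2696 values of single genes under alternatives, 2650 stayed on the same side of the threshold, 45 lost a call, 1 gained one and none reversed. Most of the 2650 were called in neither fit, and 98 of these changed sign, so that number says little about the calls. All 45 losses fell on Car2 in the NCD pulldown, the Bacon pulldown and the Bacon input, and on the Gm45837 row against any odour. The calls of Car2 and Gucy1b2 averaged over the 4 groups were kept. The Car2 call in the NCD pulldown was lost, leaving 0 members, with DESeq2 size factors, no filter on low counts, a minimum count of 30 or a covariate for the ribosomal RNA share, and that in the Bacon pulldown (0) with no filter or only the groups compared. In the Bacon input 0 members were called with a covariate for the ribosomal RNA share or only the groups compared. The cause was not tested. At an adjusted p under 0.05, 1 member was called in the pulldown without odour, 2 with NCD, 2 with Bacon and 3 with HFD. There was 1 each in the ratio of Bacon to no odour, the ratio of any odour to no odour and the HFD input. The share of all genes at 0.05 is not given here, so these counts are a description only. At the stricter 0.001, 35.8% to 46% of all genes were called in the 4 pulldown comparisons. Leaving out each pool gave 0 to 1 members in the pulldown without odour, with NCD and with Bacon and in the Bacon input, 2 to 2 in the mean of the 4 groups and 0 to 0 in the other comparisons.

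With the replicate number as a term (replicate block) the Bacon input had 0 members called, and the block changed no other count. Inputs of 2 odours with the same number correlated with a median r of 0.0200 (27 pairs) and those with different numbers with -0.00209 (138 pairs). Pulldown and input of a pool, which come from the same tissue, reached only 0.0142. Whether inputs with the same number share more than that number therefore cannot be told from these correlations. Without the term for the pool, the ratio model called the same numbers of members. Counts of 9 to 30 limit Gucy2d, and the length used moved the level of Car2 per kb from 25.3 to 34.3.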

Other observations

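Xndc1, the gene model upstream of Trpc2 whose exons are also part of Xntrpc, stood higher in the pulldown in 21 of 21 pools. Its log2 change was 0.72 without odour, 0.59 with NCD, 0.37 with Bacon and 0.52 with HFD, with edgeR adjusted p of 3.08e-07, 7.29e-07, 0.000903 and 1.98e-05. It shares 43.5% of its 31-base words with Xntrpc.

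Markers of other cells differed widely between pulldown and input in the contrast averaged over the 4 groups, in which 67.2% of all genes were called. Of 6 supporting cell markers 6 fell, with summed group means of 8317 to 9592 CPM in the inputs and 3005 to 3339 CPM in the pulldowns. Of 6 immature sensory neuron markers 4 rose and 1 fell, of 4 ionocyte markers 2 rose, of 8 olfactory bulb markers tested 2 rose and 3 fell, of 4 microvillous tuft markers tested 1 rose and 3 fell, and of 5 B cell markers 4 fell. Ascl3, an ionocyte factor named after its value was seen, also rose by 0.81 in the ratio of any odour to none (edgeR adjusted p = 1.17e-05), where 5.47% of all genes were called, 1158 of them and 240 with a covariate for the ribosomal RNA share. Its own value with that covariate was not examined. Of the 15 genes of canonical odour transduction, 11 rose and 3 fell in the averaged contrast, and Omp (0.64) and Gng13 (1.33) rose in the ratio of Bacon to no odour, where 3.78% of all genes were called, 801 of them and 55 with that covariate.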
